A study of Mus musculus with 29 samples.

Results

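Short-term haematopoietic stem cells (ST-HSC) sorted from the bone marrow of Dnmt3a-mutant mice were compared with ST-HSC of control mice by RNA-seq. The members were the libraries whose sample title names ST-HSC, 4 of them mutant and 3 control, which is 7 of the 29 libraries in the series. The other 22 hold mutant and control LT-HSC (long-term haematopoietic stem cells), MPP3 and MPP4, the last a pair of multipotent progenitor classes. All mice were of strain C57BL/6, young, and sampled 6 weeks after pIpC, a synthetic double-stranded RNA that is commonly given to switch on the interferon-inducible Mx1-Cre recombinase. The mutant mice carry an altered Dnmt3a, whose exact allele the labels do not name, and the controls are described as control, with no further genotype. The ST-HSC titles of the mutant libraries give Dnmt3a without the word mutant, and the letter M in their descriptions was read with it. The labels do not tell whether each replicate is a separate animal, so a p-value here reflects the spread among these libraries alone, part of which may be technical. The series title concerns selection of such cells in an aged marrow environment, and these libraries are from young mice. In sorted bulk samples, fewer cells of a type and less RNA per cell cannot be told apart.

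ST-HSC stand just below LT-HSC in the stem-cell hierarchy and feed the multipotent progenitors, with MPP3 leaning towards granulocytes and monocytes and MPP4 towards lymphocytes. They are commonly sorted as Kit-positive, Sca-1-positive cells without CD150 (the product of Slamf1), CD48 or FLT3, and the labels do not give the gates of this sort. DNMT3A is a de novo DNA methyltransferase, and its loss or mutation in blood stem cells is known for enhanced self-renewal and for clonal haematopoiesis in people.

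In these data the mutant and control ST-HSC transcriptomes could not be separated gene by gene at the depth and replication available. No gene passed an adjusted p of 0.05 in edgeR's quasi-likelihood test among 13381 genes tested, in which the smallest adjusted p was 0.998. Rras and Phf13 came nearest to the threshold in a second tool, DESeq2 (adjusted p = 0.051), while both were at 0.998 in edgeR. The groups overlapped for Rras. Of 34 nuclear genes of oxidative phosphorylation 28 were higher in the mutant, beside 50.7% of all genes, and none passed the test. Mutant replicate 4 was at the level of the controls for these genes. The first axes of variation set single libraries apart rather than genotypes. Mutant replicate 2 held Slamf1 far above the level of the other ST-HSC libraries, and control replicate 1 held RNA of B, antibody-secreting and plasmacytoid dendritic cells.

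The mutant libraries held 6323478 to 7295044 counts and the control libraries 6133994 to 8634517, with 14802 to 17087 genes having a count in mutant and 15920 to 17536 in control libraries. With a floor of 3 counts in a library, a gene without a count could lie at up to 0.337 to 0.577 CPM, which are counts scaled to a common library size by TMM (a trimmed mean of ratios). Such floors cover counting error only. Mitochondrial genes took 23.96% to 34.66% of the counts in mutant libraries and 26.35% to 33.13% in control libraries, the highest share being that of mutant replicate 2. Pairwise correlations of log2 CPM across genes ran from 0.79 to 0.916, and the first principal component, with 36.2% of the variance, set mutant replicate 2 apart from the other 6 libraries. The second, with 20.2%, set control replicate 3 apart. The description numbers of the libraries begin with 17 or 18, and the labels do not say what these series are. Control replicate 3 is the only control in series 18, which also holds mutant replicates 3 and 4. Within the controls, replicate 3 and its number series therefore cannot be told apart. Within groups, each of the 9 pairs of replicates differed beyond sampling noise (chi-square over its degrees of freedom 23.38 to 68.23).

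The surface markers of the gate were looked at first. Kit, the stem cell factor receptor, was at 612, 734, 593 and 789 CPM in mutant ST-HSC and at 625, 678 and 671 in control ST-HSC. Ly6a, which encodes Sca-1, was at 45.1, 58.3, 77.8 and 61.2 CPM in mutant libraries and 57.1, 30.5 and 22.1 in controls. Cd34 lay between 257 and 329.5 CPM in mutant libraries and between 252 and 283 in controls, so the groups overlapped for all 3. Flt3, the gene of the receptor whose protein marks MPP4, was at 111 to 153 CPM in the mutant and 129.9 to 213 in the control libraries. Cd48 was low in each library, at 1.16 to 16.1 CPM in the mutant and 9.21 to 18 in the control group.

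Slamf1, which encodes CD150 (ENSMUSG00000015316, GRCm38 chromosome 1, 171767127 to 171801184), went against this pattern in 1 library. It was at 1.88, 416, 0.792 and 1.11 CPM in mutant replicates 1 to 4 and at 0.787, 2.19 and 1.63 in the controls. The value of mutant replicate 2 rests on 2159 counts, and the other 6 libraries were close to the floor. Scaled over all 29 libraries, Slamf1 was at 406 CPM in this library, against 31.1 to 54.2 in mutant LT-HSC and 14.2 to 29.8 in control LT-HSC. It was at most 3.52 CPM in MPP3 and 0.121 in MPP4, so no other library in the series came near it. Its log2 difference between mutant and control ST-HSC was 6.08 ± 2.08 (SE) with all libraries and -0.28 without mutant replicate 2. The same library held the highest level of Galnt5, a glycosyltransferase gene, at 197 CPM against 1.43 to 5.35 in the other mutant and 1.38 to 3.42 in the control libraries, a gene chosen after its values were seen. Hoxa6 was at 106 CPM there, against 4.77 to 13.5 in the other mutant libraries and 5.76 to 12.4 in the controls. In all, 103 genes were over 4-fold above each other ST-HSC library in mutant replicate 2, against 3, 15 and 6 genes in the other mutant libraries. In the other direction, 36 genes were over 4-fold below each other library there, against 0, 1 and 0. It also had the fewest genes with a count of the 7 libraries, at 14802. What sets this library apart was not tested.

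In the control group it was replicate 1 that stood out. It had 96 genes over 4-fold above each other ST-HSC library, against 8 in replicate 2 and 37 in replicate 3. Igkc, the immunoglobulin kappa constant gene, was at 16.5, 88.3, 108 and 3.07 CPM in the mutant libraries and at 1445, 2.30 and 63.8 in the control libraries. Siglech, a marker of plasmacytoid dendritic cells, was at 3.76, 8.85, 13.5 and 0.860 CPM in the mutant and at 141, 1.84 and 3.09 in the control group. Control replicate 1 was thus the high library for both, while the other controls lay within the mutant range for Siglech and within or just below it for Igkc. The summed markers of mature B and antibody-secreting cells ranged from 21.2 to 148 CPM in mutant libraries and were 2008, 17.5 and 97.4 in controls 1, 2 and 3. Those of dendritic cells summed to 423 to 516 CPM in the mutant group and to 1456, 587 and 558 in the controls. Those of basophils, mast cells and eosinophils summed to 1.54 to 8.35 CPM in mutants and to 151.5, 7.03 and 9.61 in controls, with Gzmb and Prg3 at 0 in all 7. Neutrophil markers were spread over both groups, at 103 to 754.5 CPM in mutants and 126 to 388 in controls. Macrophage and monocyte markers summed to 88.8 to 179 CPM in mutants and 109 to 196 in controls, with Marco at 0. T and NK markers summed to 7.60 to 18.9 CPM in mutants and 12.4 to 46.9 in controls, with Gzma at 0. Stromal and endothelial markers summed to 88.5 to 258 CPM in mutants and 108 to 245 in controls, with Col3a1 at 0.

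**Figure D1:**
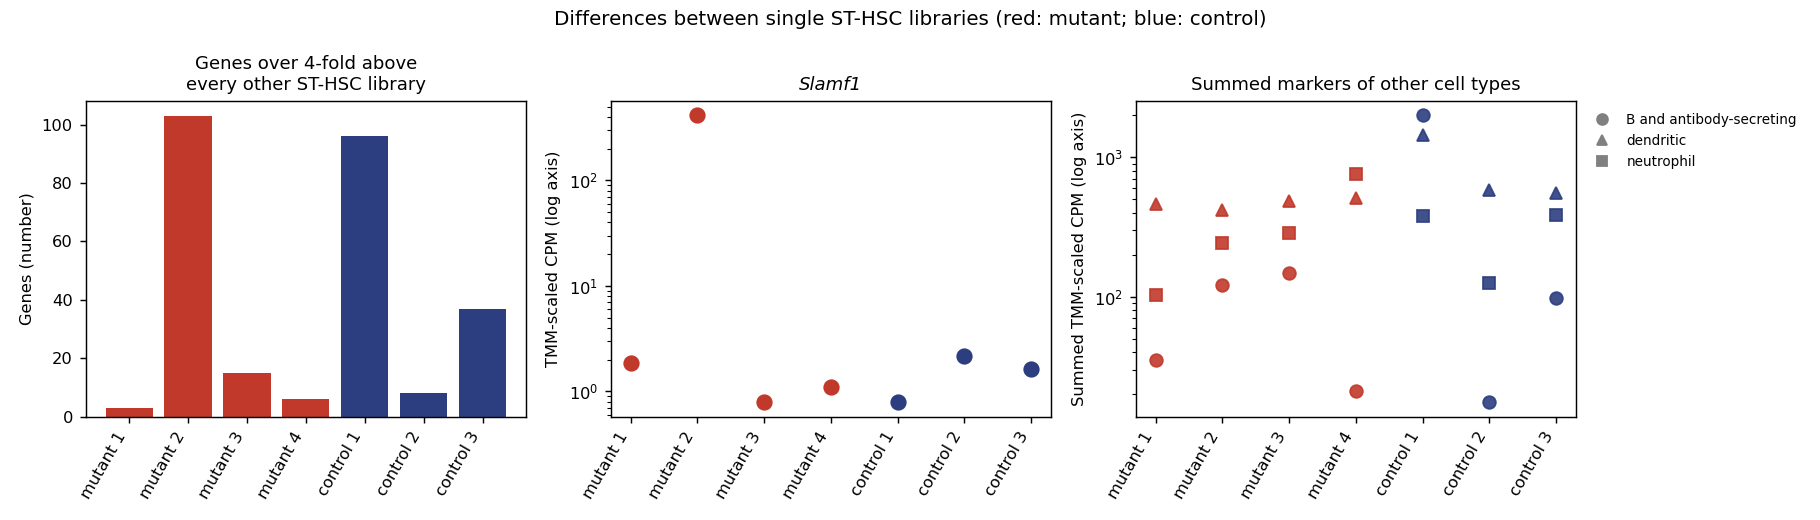
Number of genes over 4-fold above every other ST-HSC library (left, bars), Slamf1 in TMM-scaled CPM on a log axis (middle) and the summed CPM of 3 marker lists on a log axis (right) in each mutant (red) and control (blue) ST-HSC library. Mutant replicate 2 has 103 such genes and Slamf1 at 416 CPM, and control replicate 1 has 96 such genes and B and antibody-secreting markers at 2008 CPM.

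Dnmt3a itself (ENSMUSG00000020661, chromosome 12) was at 141, 100.5, 152 and 119.9 CPM in the mutant libraries and at 149.6, 109 and 144 CPM in the control libraries. The groups overlapped, and the log2 difference was -0.07 ± 0.236 (SE, adjusted p = 0.998 in edgeR). Its sign turned to 0.03 without mutant replicate 2 and to 0.02 without control replicate 1. Counts of the whole gene do not tell the altered allele from the normal one and are no check of the genotype labels. Of the 18 tested writers, erasers and readers of DNA methylation, 8 were higher and 10 lower in mutant ST-HSC, with a median log2 difference of -0.09 against 0.01 over all genes tested, and of 0.02 without control replicate 1. Among them Idh1, which encodes a cytosolic isocitrate dehydrogenase, was at 12.7, 2.12, 5.39 and 7.86 CPM in mutants and at 16.3, 19.4 and 17.4 in controls, and its groups did not overlap. Mbd3, a methyl-CpG-binding-domain protein gene of the NuRD complex, was at 18.5, 30.4, 31.7 and 23.6 CPM in mutants and at 13, 12.1 and 18.2 in controls. Neither passed the adjusted threshold (0.998 for both in edgeR). Hells, a chromatin remodeller gene needed for DNA methylation, overlapped between groups at 26.1 to 63.5 CPM in mutants and 46.4 to 77.9 in controls.

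Over the whole transcriptome, 0 of 13381 genes (0%) were called higher and 0 (0%) lower in mutant ST-HSC at an adjusted p under 0.05 in edgeR. At an unadjusted p under 0.05 there were 264 higher genes (1.97%) and 229 lower genes (1.71%), which is 3.68% of the genes tested in either direction. DESeq2 called 0 genes as well, with 398 higher and 276 lower at an unadjusted p under 0.05 and a smallest adjusted p of 0.0509. limma voom called 0, with 185 higher and 216 lower at that level. Every mutant library was above every control library in 328 genes (2.45%) and below in another 328 (2.45%). The median log2 difference over all genes was 0.01, and 50.7% of genes were higher in the mutant. Without the filter on low counts 1 gene was called lower, the immunoglobulin alpha constant gene Igha (adjusted p = 0.00837 in edgeR among 20783 genes). Igha was at 0 CPM in all 4 mutant libraries and at 896, 0.115 and 74.4 CPM in controls 1, 2 and 3, and is named because it was called there.

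The pair of genes with the smallest adjusted p in DESeq2 were Rras and Phf13, both at 0.0509 with that tool and at 0.998 in edgeR. Rras, a Ras-family GTPase gene (ENSMUSG00000038387, chromosome 7, 45017961 to 45021647, plus strand), was at 1.30, 39.5, 18.7 and 18.1 CPM in mutant libraries 1 to 4 and at 1.46, 1.38 and 1.95 in controls. Of the mutant libraries, 3 stood well above the controls and replicate 1 lay below all of them, so the groups overlapped. Its log2 difference was 3.59 ± 0.909 (SE) and 3.98 without mutant replicate 1 (adjusted p = 0.612 in edgeR, the smallest of any gene in that setting). Rras is no member of the set chosen by rule below and was taken up after its values were seen. Phf13, which encodes a PHD-finger reader of methylated histone H3 (ENSMUSG00000047777, chromosome 4, 151989633 to 151996258, minus strand), was at 9.39, 5.77, 5.70 and 11.8 CPM in mutant libraries and at 24.2, 19.5 and 97.4 in controls. Control replicate 3 was far above the other controls, and all mutant libraries lay below all controls. The log2 difference was -2.51 ± 0.569 (SE), and -1.41 without control replicate 3.

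Because DNMT3A acts on cytosines followed by guanine, the promoter windows of this pair are shown with each CG in capitals, from 250 bases before to 50 after the annotated start in RefSeq on GRCm38.p6. Rras, at chr7:45017692-45017991 on the plus strand (the first of 3 starts listed), and Phf13, at chr4:151996130-151996429 on the minus strand, read as follows.
Rras: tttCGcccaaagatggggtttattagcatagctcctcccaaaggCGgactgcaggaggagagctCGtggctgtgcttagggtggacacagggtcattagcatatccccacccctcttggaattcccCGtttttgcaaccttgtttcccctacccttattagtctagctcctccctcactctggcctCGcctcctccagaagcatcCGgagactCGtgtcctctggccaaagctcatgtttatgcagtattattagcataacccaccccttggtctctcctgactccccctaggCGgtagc
Phf13: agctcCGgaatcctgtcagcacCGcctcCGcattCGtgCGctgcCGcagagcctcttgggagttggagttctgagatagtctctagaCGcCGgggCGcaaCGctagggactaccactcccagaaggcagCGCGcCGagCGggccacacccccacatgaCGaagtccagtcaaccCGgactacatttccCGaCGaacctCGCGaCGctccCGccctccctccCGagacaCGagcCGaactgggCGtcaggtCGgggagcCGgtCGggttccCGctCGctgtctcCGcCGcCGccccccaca
The window of Rras holds 8 CG and that of Phf13 holds 34, counted on 1 strand since the motif is its own complement. The median over 27025 RefSeq promoters of the same length was 7. At least 8 were found in 49% of them and at least 34 in 7.47%. DNA methylation was not measured in these libraries, and only 73.5% of the genes tested had a promoter in the table, under the 80% needed to compare CG content over gene sets, so no such comparison was made.

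The genes described next were taken by rule, 12 in each direction. They have the smallest p among annotated genes at 5 CPM or more in a group whose mutant and control libraries do not overlap. Their separation was therefore fixed by the choice, none passed the adjusted threshold (0.998 in edgeR for each), and they are given as values. Of the higher genes, Guk1, which encodes guanylate kinase, was at 22, 22.9, 18.5 and 18.7 CPM in mutant ST-HSC and at 8.10, 6.45 and 3.91 in controls, a log2 difference of 1.73 ± 0.459 (SE). The mutant libraries lay close together and the lowest of them was over 2 times the highest control. Srm, which encodes spermidine synthase, was at 56.4, 89.7, 85.7 and 44.9 CPM in mutants and 37.2, 32.6 and 25.2 in controls (1.12 ± 0.329). Cox5b, a subunit gene of cytochrome c oxidase, was at 47.7, 59.5, 73.3 and 29.5 CPM in mutants and 27.7, 18.9 and 23.0 in controls (1.18 ± 0.365). For Cox5b the gap was narrow, between mutant replicate 4 and control replicate 1.

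Of the other higher genes, Psmd2, which encodes a subunit of the regulatory particle of the proteasome, was at 64.6, 85.8, 53.9 and 60.4 CPM in mutants and 30.8, 37.0 and 16.9 in controls, a log2 difference of 1.23 ± 0.338 (SE). Ube3b, an E3 ubiquitin ligase gene, was at 70.0, 113, 94.9 and 89.6 CPM in mutants and 51.7, 47.3 and 42.0 in controls (0.96 ± 0.262). In both, mutant replicate 2 was the highest library and control replicate 3 the lowest. Stambp, a deubiquitinase gene of endosomal sorting whose exons overlap Gm21284, was at 12.7 to 23.5 CPM in mutants and 3.74 to 6.80 in controls. Sar1b, a GTPase gene of COPII vesicles, was at 20.4 to 57.4 CPM in mutants and 6.19 to 16.4 in controls. Dhx8, an RNA helicase gene of splicing, was at 32.2 to 102 CPM in mutants and 18.9 to 29.8 in controls, with mutant replicate 2 highest.

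Vegfb and Mmp2 encode secreted proteins, a growth factor of the VEGF family and a matrix metalloproteinase. Vegfb was at 12.9, 30.8, 30.3 and 22.4 CPM in mutants and 7.20, 7.14 and 8.14 in controls, a log2 difference of 1.68 ± 0.458 (SE). Its controls were nearly equal while mutant replicate 1 was the lowest mutant library. Mmp2 was at 1.59, 14.4, 8.55 and 9.09 CPM in mutants and 1.24, 1.5 and 0.488 in controls, and mutant replicate 1 was barely above the controls. The zinc-finger genes Zfp566 and Zswim1, which share exons with Gm26920 and Spata25, were lowest in control replicate 3. Zfp566 was at 6.65 to 30.0 CPM in mutants and 0.326 to 3.57 in controls, and Zswim1 at 7.13 to 14.6 CPM in mutants and 0.977 to 3.57 in controls. Across the settings tried, the log2 differences of the 12 genes kept their sign. Since the genes were chosen for groups that do not overlap, leaving out libraries could not turn it.

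The 12 lower genes began with Phf13, described above. Zbtb18, which encodes a transcriptional repressor and shares exons with Gm26801, was at 19.7, 13.3, 17.6 and 28.5 CPM in mutants and 39.7, 51.1 and 45.4 in controls, a log2 difference of -1.20 ± 0.350 (SE). Inpp4a, an inositol polyphosphate 4-phosphatase gene, was at 17.8, 13.7, 29.3 and 28.1 CPM in mutants and 58.4, 59.1 and 41.2 in controls (-1.25 ± 0.357). Rdh13, a mitochondrial retinol dehydrogenase gene, was at 7.23, 6.74, 8.24 and 10.4 CPM in mutants and 19.3, 22.2 and 23.3 in controls (-1.40 ± 0.419). Both groups were tight for Rdh13, and its value moved only between -1.54 and -1.32 over the settings tried. Ess2, which encodes a protein of the spliceosome, was at 3.27 to 10.8 CPM in mutants and 16.6 to 35.7 in controls.

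Of the other lower genes, Gimap6, of a GTPase family active in lymphocytes, was at 65.8, 80.8, 74.0 and 93.1 CPM in mutants and 101, 153 and 171 in controls, a log2 difference of -0.85 ± 0.253 (SE). Cd180, a Toll-like receptor homologue of B cells, was at 26.3, 6.93, 22.8 and 27.9 CPM in mutants and 238, 33.7 and 30.1 in controls. Control replicate 1, the library with B-cell markers, was high, and the log2 difference of -2.26 ± 0.676 was -0.60 without it. Bmp2k, a kinase gene whose exons overlap Paqr3, was at 17.9 to 59.3 CPM in mutants and 93.1 to 106 in controls. Icmt, whose product methylates prenylated proteins such as Ras, was at 7.89 to 15.2 CPM in mutants and 18.4 to 43.3 in controls, with exons shared with Rnf207. Clstn1, a calsyntenin gene, was at 7.70 to 14.7 CPM in mutants and 22.2 to 29.6 in controls, and Rpgrip1, a ciliary gene that overlaps Supt16, was at 41.6 to 65.3 CPM in mutants and 71.9 to 123 in controls. Mnd1, a gene of meiotic recombination, was at 0.634 to 1.54 CPM in mutants and 3.46 to 8.32 in controls.

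**Figure D2:**
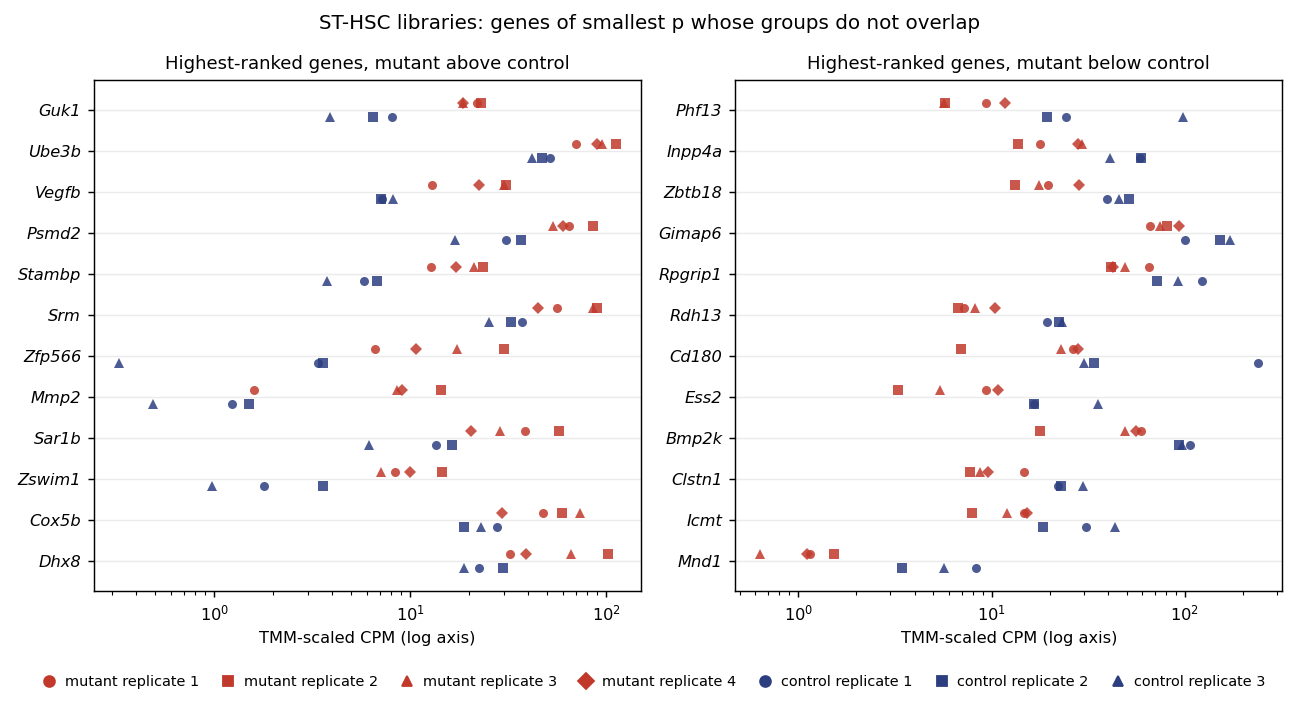
TMM-scaled CPM on a log axis of the 12 genes in each direction with the smallest p and no overlap between groups, with mutant libraries in red above control libraries in blue for each gene and a symbol for each replicate. Guk1 is tight within the mutant group and Rdh13 within both groups, while Phf13 and Cd180 each have 1 control library far to the right.

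The gene groups were then described member by member, each beside the 3.68% of all genes that had an unadjusted p under 0.05 the 50.7% that were higher and the 2.45% without overlap in each direction. No member of any of the 31 lists passed the adjusted threshold in edgeR. Oxidative phosphorylation, the respiratory-chain route to ATP, had 28 of 34 nuclear genes higher and 6 lower in mutant ST-HSC, with a median log2 difference of 0.30 against 0.01 over all genes. Of these, 4 were at an unadjusted p under 0.05, all higher, and 3 had groups that did not overlap. Cox5a, another cytochrome c oxidase subunit gene, was at 25.7, 63.3, 34.2 and 32.1 CPM in mutants and 15.9, 19.6 and 24.7 in controls. Ndufb5, of complex I, was at 25.3, 26.6, 29.6 and 19.8 CPM in mutants and 15.5, 13.6 and 9.12 in controls, with exons that overlap Mrpl47. Cox6c was at 63.9, 108, 61.0 and 41.8 CPM in mutants and 34.1, 36.4 and 48.2 in controls, so that mutant replicate 4 lay inside the control range. The direction was the same in each setting tried, with 25 to 29 members higher. By library, the median member lay 0.14, 0.39, 0.24 and -0.18 from its mean on the log2 scale in mutants 1 to 4 and -0.19, -0.26 and -0.11 in controls. Mutant replicate 4 was thus at the level of the controls.

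Ribosome biogenesis and Myc genes, which drive ribosome production, had 20 of 27 members higher and 7 lower, with a median of 0.15. The median was 0.09 without mutant replicate 1, 0.08 without mutant replicate 3 and 0.25 without control replicate 2. Only 2 were at an unadjusted p under 0.05, and 4 had groups that did not overlap, all higher. Myc, the transcription factor gene, was at 281, 418, 391 and 390.1 CPM in mutants and 233, 279 and 270.4 in controls, a log2 difference of 0.50 ± 0.219 (SE). The lowest mutant library was barely above the highest control. Pes1, a processing factor gene of the large ribosomal subunit, was at 29.2, 38.5, 30.3 and 34.4 CPM in mutants and 17.9, 20.6 and 15.8 in controls. Npm1, the nucleophosmin gene, was at 1099.5, 1076, 1666 and 1192 CPM in mutants and 972, 1044 and 769.9 in controls. Glycolysis genes had 15 of 20 members higher and 5 lower (median 0.17). Their median was 0.06 with 12 of 19 higher without mutant replicate 2, 0.07 with 12 of 20 higher without control replicate 2, and 0.37 without control replicate 1. Pgk1, phosphoglycerate kinase, was at 99.6, 92.8, 38.2 and 78.2 CPM in mutants and 46.0, 42.3 and 42.0 in controls, and mutant replicate 3 was the lowest of all 7. Slc2a1, the glucose transporter GLUT1, was at 23.8, 81.0, 24.4 and 36.6 CPM in mutants and 28.9, 11.9 and 12 in controls, and its log2 difference of 1.23 was 0.68 without mutant replicate 2. Unfolded protein and ER folding genes were split, with 11 of 20 higher and 9 lower and none at an unadjusted p under 0.05.

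Cell-cycle groups did not share a direction. G2 and mitosis genes had 3 of 26 members higher and 23 lower in mutant ST-HSC (median -0.25), with none at an unadjusted p under 0.05 and no member without overlap. Aurkb, a mitotic kinase, was at 19.7, 3.08, 30.7 and 29 CPM in mutants and 36.3, 38.9 and 25.7 in controls, and Ccnb2, cyclin B2, was at 34.3, 24.4, 41.8 and 45.7 CPM in mutants and 70.6, 41.9 and 38.6 in controls. The summed level of the list was 1768, 1410, 1765 and 1479 CPM in mutants and 2195, 1938 and 1210 in controls, so that the lowest library of all was a control. Without control replicate 1 the split was 12 higher and 14 lower (median -0.07), and the median was -0.14 without mutant replicate 2, -0.08 without control replicate 2 and -0.47 without control replicate 3. DNA replication and S phase genes had 17 of 31 higher and 14 lower, and 15 higher and 16 lower without mutant replicate 3 or without control replicate 2. Mcm3, of the replicative helicase, was at 86.9, 88.3, 94.6 and 89.4 CPM in mutants and 68.8, 67.8 and 62.0 in controls, and was the list's only member without overlap. The log2 difference of Mcm3 was 0.44 ± 0.226 (SE). G1 cyclins and CDK inhibitors had 10 of 18 higher and 8 lower, and p53 targets 7 of 17 higher and 10 lower. Cdkn1a, the p21 gene, was at 2.89 to 9.33 CPM in mutants and 2.19 to 25.2 in controls. Cdkn2a and Cdkn2b had no count in any of the 7 libraries.

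**Figure D3:**
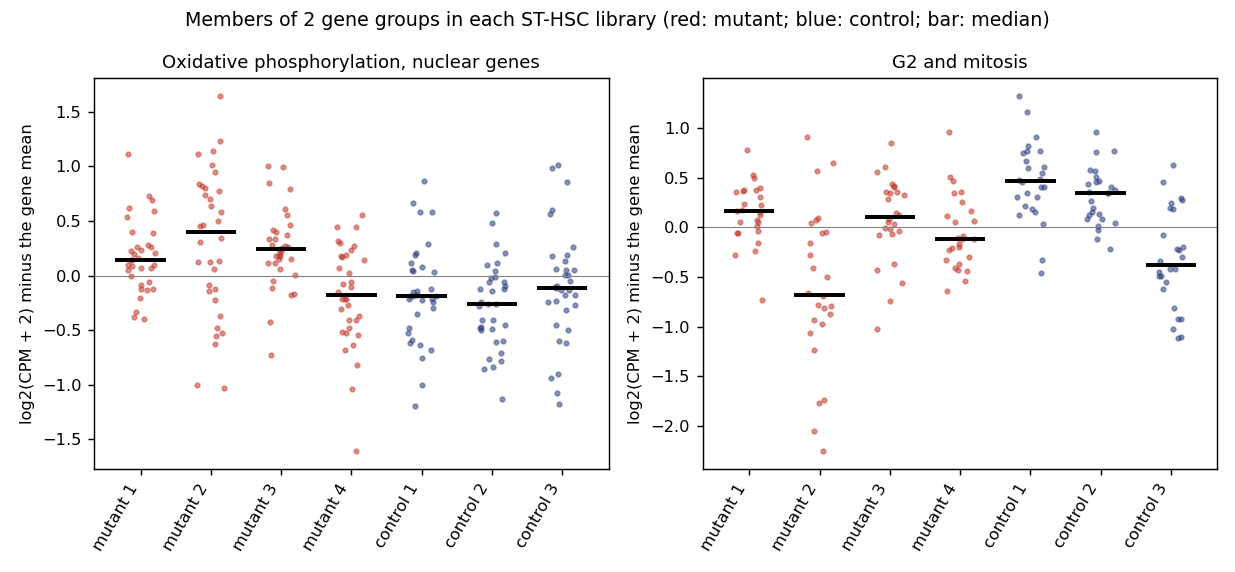
Members of the oxidative phosphorylation list (34 genes, left) and the G2 and mitosis list (26 genes, right) in each mutant (red) and control (blue) ST-HSC library, as log2(CPM + 2) minus the gene's mean over the 7 libraries, with the median as a bar. Mutants 1 to 3 have oxidative phosphorylation medians of 0.14 to 0.39 and mutant 4 one of -0.18, and the G2 and mitosis medians overlap between groups.

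Lineage lists depended on single libraries. Lymphoid priming genes had 8 of 20 members higher and 12 lower (median -0.34), with 4 lower ones at an unadjusted p under 0.05. The chemokine receptor gene Ccr9 was at 3.32, 0.577, 3.17 and 1.60 CPM in mutants and 71.2, 2.99 and 4.07 in controls, with exons that overlap other genes. Blnk, a B-cell signalling adaptor, was at 3.47, 5.77, 2.22 and 1.23 CPM in mutants and 78.5, 4.03 and 3.26 in controls. Dntt, the terminal transferase of early lymphoid cells, was at 1.16, 5.39, 1.11 and 0.368 CPM in mutants and 37.8, 1.61 and 3.91 in controls. In all 3 control replicate 1 was the high library, the one with B-cell and dendritic markers. Their log2 differences of -3.57, -3.18 and -2.87 were -0.69, -0.21 and -0.47 without it. Without this library the list had 11 members higher and 9 lower, with a median of 0.26, while leaving out mutant replicate 1 gave a median of -0.22 and leaving out control replicate 3 one of -0.67. Lck, a kinase of T-cell receptor signalling, was at 1.15 to 3.48 CPM in mutants and 4.49 to 13 in controls, and was the only list member whose groups did not overlap.

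The B and antibody-secreting markers (1 of 9 higher, 8 lower, median -3.23) and the dendritic markers (0 of 11 higher, 11 lower, median -0.69) depended largely on the same library. Without control replicate 1 their medians were -0.10 and -0.16. The dendritic list then still had 3 members higher and 8 lower. Its summed level was lower in each mutant library (423 to 516 CPM) than in each control (1456, 587 and 558 CPM). Cd74, the invariant chain of MHC class II, was at 75.3, 34.6, 86.5 and 99.1 CPM in mutants and 487, 128 and 77.0 in controls, and its log2 difference of -1.64 was -0.47 without that library. Granulocyte-monocyte priming genes had 7 of 21 members higher and 14 lower (median -0.22), and 12 higher and 9 lower (median 0.11) without control replicate 1. That median was -0.43 without mutant replicate 3, -0.53 without control replicate 2 and -0.49 without control replicate 3. Spi1, the PU.1 transcription factor gene, was at 28.0, 23.7, 34.8 and 40.3 CPM in mutants and 58.7, 44.5 and 39.7 in controls. Csf3r, the G-CSF receptor gene, was at 209 to 498 CPM in mutants and 138 to 252 in controls.

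Erythroid genes had 17 of 22 members higher and 5 lower in mutant ST-HSC (median 0.37), with none at an unadjusted p under 0.05. The split stayed in 1 direction over the settings, with 14 to 19 members higher, but leaving out mutant replicate 2 gave a median of 0.19, and leaving out control replicate 1 one of 0.70. Gata1, the erythroid and megakaryocyte transcription factor gene, was at 9.83, 10.8, 21.5 and 4.05 CPM in mutants and 4.39, 9.79 and 2.93 in controls. Icam4 had the list's only groups without overlap, at 0.962 to 5.54 CPM in mutants and 0.488 to 0.691 in controls, near the floor. The summed level was 1949 to 4042 CPM in mutants and 1819 to 2623 in controls, highest in mutant replicate 2. Megakaryocyte and platelet genes were even, with 8 of 15 higher and 7 lower. Selp, P-selectin, was at 46.5, 63.1, 80.9 and 67.1 CPM in mutants and 45.4, 42.0 and 23.3 in controls, the groups being separated by about 1 CPM. Plek, pleckstrin, was at 76.0, 39.6, 88.1 and 122 CPM in mutants and 149, 110.3 and 161 in controls.

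Stem-cell regulators had 18 of 28 members higher and 10 lower (median 0.12), and Slamf1 was the only one at an unadjusted p under 0.05. The median was 0.03 without mutant replicate 2, and between 0.06 and 0.25 without any other single library. Without mutant replicate 2 and control replicate 1 together, 14 were higher and 14 lower. Fgd5, a gene restricted to haematopoietic stem cells within the marrow's blood cells, was at 28.8, 111, 17.4 and 39.8 CPM in mutants and 31.9, 26.4 and 28.2 in controls. Its log2 difference of 0.77 was -0.01 without mutant replicate 2. Cd27, a TNF receptor family gene of multipotent cells, was at 163, 411, 312 and 258 CPM in mutants and 213, 171 and 155 in controls, a log2 difference of 0.67 ± 0.297 (SE). Hox genes and their cofactors had 8 of 18 members higher and 10 lower. Polycomb and chromatin regulators had 13 of 24 higher and 11 lower, and imprinted genes 8 of 14 higher and 6 lower. Of the imprinted genes, Mest, whose exons overlap Copg2, was at 6.75 to 9.05 CPM in mutants and 1.24 to 6.51 in controls. Of 5 retroelement and X-linked Xlr genes tested 4 were higher, and Xlr3b, whose reads cannot be told safely from its near copies, was at 1.90 to 15.6 CPM in mutants and 0 to 3.11 in controls.

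Inflammatory lists showed no common direction either. Interferon-stimulated genes, of interest because pIpC induces interferon in all these mice, had 14 of 34 members higher and 20 lower (median -0.08, against 0.02 without control replicate 1), and summed to 1181 to 1346 CPM in mutants and 1291 to 1307 in controls. Psmb8, an immunoproteasome subunit, was at 78.8, 43.7, 64.6 and 65.8 CPM in mutants and 48.7, 26.8 and 31.7 in controls, and was the only member at an unadjusted p under 0.05. TNF and NF-kB genes had 16 of 25 higher and 9 lower (median 0.22, against 0.05 without mutant replicate 2 and 0.08 without mutant replicate 3). Tnip1, an NF-kB inhibitor, was at 27.8, 63.3, 33.9 and 19.8 CPM in mutants and 17.9, 14.9 and 13.3 in controls. Tradd, the adaptor of TNF receptor 1, was at 4.48, 2.31, 6.18 and 4.30 CPM in mutants and 9.56, 7.95 and 16.8 in controls, so that the list held 1 member without overlap in each direction. Tlr4, the receptor for bacterial lipopolysaccharide, was at 6.79, 93.0, 32.8 and 16.3 CPM in mutants and 7.87, 15.8 and 10.6 in controls, and its log2 difference of 1.70 was 0.71 without mutant replicate 2.

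Immediate-early and AP-1 genes, which also respond to cell handling, had 11 of 23 members higher and 12 lower (median -0.10), with 3 lower ones at an unadjusted p under 0.05. The median ran from -0.18 without mutant replicate 2 to 0.10 without mutant replicate 1. Klf2 was at 10.1, 22.3, 13.3 and 20.5 CPM in mutants and 37.9, 19.4 and 47.9 in controls, and Btg2, an antiproliferative gene, at 5.97 to 19.3 CPM in mutants and 13.6 to 48.6 in controls. For both, control replicate 2 lay within the mutant range. Adhesion and homing genes had 10 of 22 higher and 12 lower. Itgb1, the integrin beta 1 chain, was at 91.8, 43.5, 109 and 95.4 CPM in mutants and 129.8, 139 and 122 in controls. S1pr3, a sphingosine 1-phosphate receptor, was at 2.02, 7.70, 5.07 and 2.09 CPM in mutants and 14.1, 8.41 and 13.2 in controls. These were the list's 2 members without overlap, both lower in the mutant. Cytokine and inflammatory receptors had 16 of 29 higher and 13 lower (median 0.01).

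**Figure D4:**
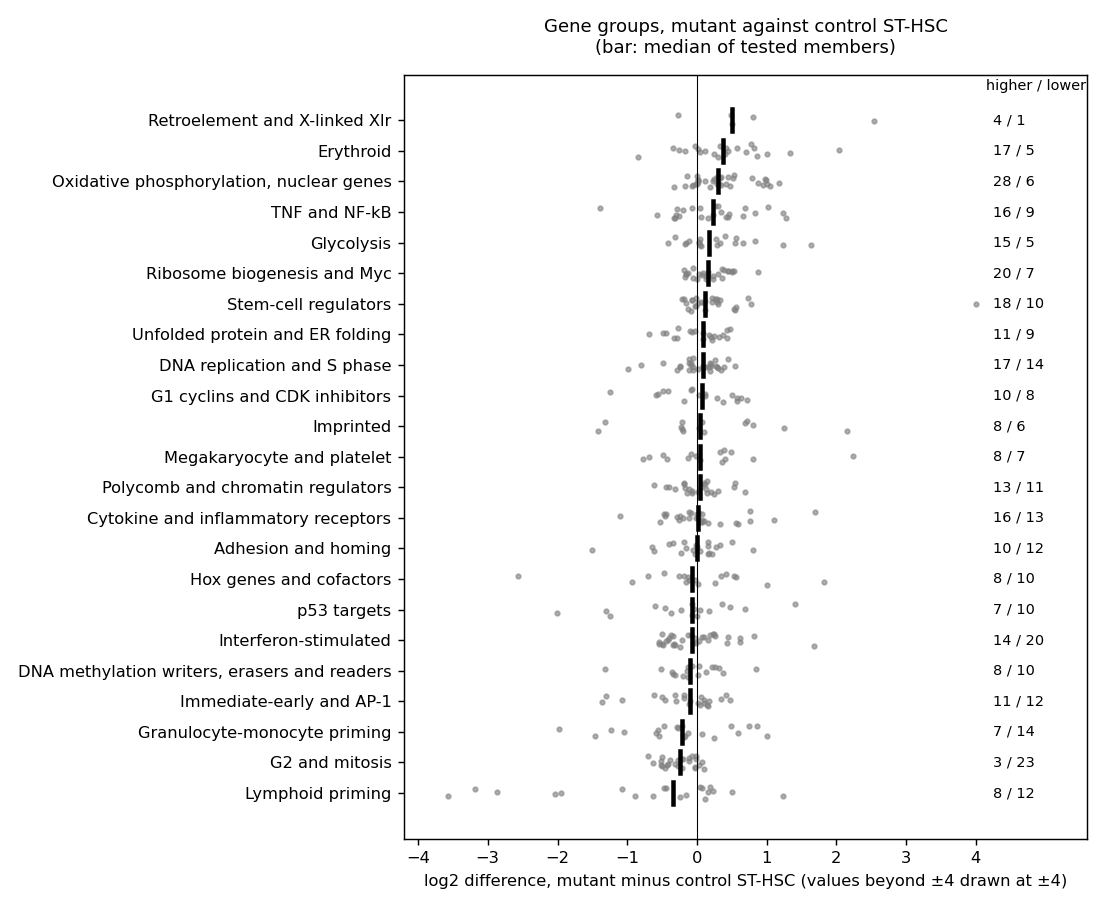
Log2 difference, mutant minus control ST-HSC, of each tested member (grey points) of the gene lists that hold no markers of other cells, with the list median as a bar and the number of members higher and lower at the right. Oxidative phosphorylation has 28 higher and 6 lower members, and G2 and mitosis 3 higher and 23 lower.

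Whether the genotype difference was particular to ST-HSC was asked by testing the ST-HSC difference minus the mean difference in LT-HSC, MPP3 and MPP4 over all 29 libraries. Of 15915 genes, 0 (0%) passed the adjusted threshold in edgeR in either direction, with 551 (3.46%) higher and 455 (2.86%) lower at an unadjusted p under 0.05 (6.32% in all), and limma voom with the description number as a random block called 0. Guk1 had a difference of differences of 1.93 ± 0.436 (SE), and its log2 differences were 1.73 ± 0.459 in ST-HSC, -0.04 ± 0.364 in LT-HSC, -0.30 ± 0.441 in MPP3 and -0.27 ± 0.352 in MPP4. Phf13 had -2.58 ± 0.640, with -2.51 in ST-HSC, -0.68 in LT-HSC, 1.23 in MPP3 and -0.35 in MPP4. Both had an adjusted p of 0.721 in edgeR, as had Ube3b (1.03 ± 0.240) and Mmp2 (4.53 ± 1.13). Mmp2 was -3.26 ± 1.06 in MPP3, opposite to its value in ST-HSC, and did not pass the filter on low counts in LT-HSC. Its levels were low, with means of 0.365 CPM in mutant and 3.74 in control MPP3. In ST-HSC the means were 8.42 and 1.07 CPM, so both differences rest on few counts in the lower group. Vegfb had a positive log2 difference in all 4 populations, but the one in MPP4 was well within its SE. The values were 1.68 ± 0.458 in ST-HSC, 0.58 ± 0.416 in LT-HSC, 1.21 ± 0.435 in MPP3 and 0.04 ± 0.351 in MPP4. Cd180 had a negative one in all 4, at -2.26 ± 0.676 in ST-HSC, -1.10 ± 0.355 in LT-HSC, -0.31 ± 0.245 in MPP3 and -0.23 ± 0.193 in MPP4. Since these genes were chosen for their difference in ST-HSC, the choice itself favoured a larger value there than elsewhere.

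Each population fitted on its own gave 0 called genes in edgeR as well. The share at an unadjusted p under 0.05 was 3.68% in ST-HSC, 8.51% in LT-HSC, 2.23% in MPP3 and 3.15% in MPP4. Of the ST-HSC genes at that level that were also tested in LT-HSC, 311 of 477 (65.2%) had the same sign there, beside 54.1% of all 13060 genes tested in both. In MPP3 it was 247 of 472 (52.3%, beside 51.6%) and in MPP4 221 of 462 (47.8%, beside 48.4%). The populations do not share libraries, but their descriptions repeat the same numbers, whose meaning is not given, so the shares are given as a description. Control LT-HSC replicate 1 has the same description number as control ST-HSC replicate 1. It had the highest Cd79a (79.3 CPM) and Siglech (20.0 CPM) of the LT-HSC libraries. Mutant LT-HSC were at 1.15 to 3.11 and 0.458 to 2.51 CPM. For Igkc, control LT-HSC replicate 3 was higher, at 206 against 104 CPM. How far the LT-HSC share rests on such RNA was not tested.

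**Figure D5:**
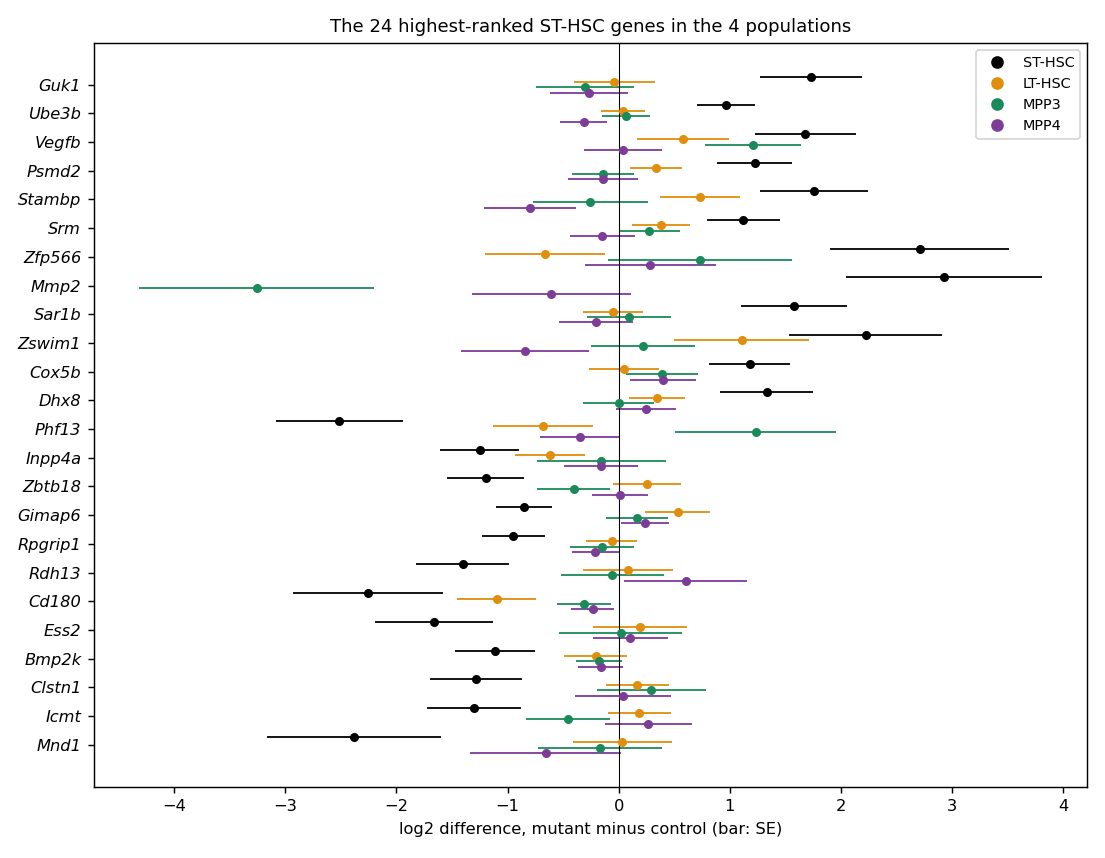
Log2 difference, mutant minus control, with its SE as a bar, of the 24 genes chosen in ST-HSC (black) and their values in LT-HSC (orange), MPP3 (green) and MPP4 (purple). Vegfb and Cd180 have the same sign in the 4 populations, with Vegfb at 0.04 ± 0.351 in MPP4. Mmp2 has opposite signs in ST-HSC and MPP3, where its means are 0.365 CPM in mutant and 3.74 in control libraries.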

How the data were processed

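Total RNA was used (RNeasy Micro kit, per the labels' protocols). The values were expected counts per gene, deposited by the authors as whole numbers for 38924 Ensembl identifiers, so no rounding was needed. The submitters' processing notes name GRCm38 as the build and, as tools without role or order, Bowtie2 2.2.0, SAMtools 0.1.18, edgeR 3.5.3 and RSEM 1.2.12. RSEM shares reads between similar genes, and no source used here tells whether counting used strand, so values of paralogues and overlapping genes are uncertain. GENCODE vM21 gave symbols and coordinates, in which 37607 identifiers matched and 1317 did not. The unmatched held 0.8696% to 1.253% of each ST-HSC library.

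The ST-HSC comparison used its 7 libraries in edgeR 4.0.16 (R 4.3.3): TMM scaling, filterByExpr (at least 10 counts, total of 15), the quasi-likelihood test and Benjamini-Hochberg adjustment over all genes, threshold 0.05. Differences between populations were tested in 1 fit of 29 libraries with 8 group means. CPM values are TMM-scaled. DESeq2 1.42.0 and limma 3.58.1 were alternatives. The fit was also run on simulated counts. That outcome is not reported here, so it does not tell which differences could be found at the spread of these libraries. Named genes were 12 per direction by smallest p among non-overlapping genes of at least 5 CPM in a group, leaving out predicted genes, pseudogenes and immunoglobulin segments, and up to 4 per list. Members, lists and rules were chosen with earlier results of these data known.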

Additional observations from a re-analysis of the deposited data

Results flagged for a closer look

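In the 4 mutant ST-HSC libraries, 84 quantities were examined for 1 library that lies far from the others (Dixon's test at the 95% level). Chance alone marks about 1 in 20 such groups if the values are normally distributed and the quantities independent. The gene levels were taken as CPM without a log, and quantities of the same library can move together. That rate therefore need not hold here. The 7 that were marked are mostly high values of mutant replicate 2. They were the Slamf1 level of 416 CPM, the Hoxa6 level of 106 CPM, the Gp5 level of 36.6 CPM (a platelet glycoprotein gene, at 1.74 to 6.94 CPM in the other mutant libraries), the Usp18 level of 28.5 CPM (an interferon-induced protease gene, at 2.58 to 5.23 CPM in the others), the Dntt level of 5.39 CPM and the score of 133 on the first principal component. In mutant replicate 3 the Cd22 level of 2.06 CPM was marked, beside 0.289 to 0.385 CPM in the other mutant libraries, which is at or under the floor of each. The 3 control libraries are too few for this test, so control replicate 1 could not be marked by it.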

How the results depend on the processing

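The count of 0 genes called higher was the same under each of the other settings, and 1 gene was called lower without the filter on low counts (Igha). Leaving out each library in turn gave 0 to 0 called genes in either direction and 0 to 0 for the difference between populations. It gave 183 to 377 higher and 165 to 258 lower genes at an unadjusted p under 0.05. Without the filter these were 507 and 650, with all 29 libraries in the fit 654 and 652, and without mutant replicate 2 and control replicate 1 together, a setting added after seeing the data, 360 and 348. The log2 difference of Dnmt3a ran from -0.19 to 0.03 when 1 library was left out, and was 0.11 without both of these. Over the fits that leave out 1 library, the log2 difference ran from -0.28 (without mutant replicate 2) to 6.50 for Slamf1 and from -0.0098 (likewise) to 1.05 for Fgd5. It ran from -1.43 to 0.16 for Csf2rb2, -4.84 to 0.49 for Cd79a, -3.82 to 0.71 for Igkc and -3.46 to 1.45 for Siglech, the upper end being without control replicate 1 for these 4, and from -0.62 to -0.14 for Ccnb2. Without both libraries it was -0.60 for Slamf1, 0.17 for Csf2rb2, 0.86 for Cd79a, 0.36 for Igkc, 1.28 for Siglech and 0.0047 for Ccnb2. Same-numbered replicates of the 2 groups showed little shared deviation (r of 0.12, -0.04 and 0.03). With so few pairs and noisy group means, this cannot tell whether the numbers pair the libraries. A fit with the replicate number as a block called 0 genes, with 237 higher and 243 lower at an unadjusted p under 0.05. It turned Igkc to 0.49 and Siglech to 0.44. Mutant replicate 4 has no same-numbered control and so adds nothing to the genotype difference in that fit. It was the lowest mutant library for both genes. With the number series, 17 or 18, as a term, 0 genes were called, with 351 higher and 223 lower at an unadjusted p under 0.05. The neutrophil markers had 2 members higher and 11 lower in that fit, against 7 and 6 without the term. Causes were not tested. The depth leaves levels under the floor of 3 counts, 0.337 to 0.577 CPM, out of reach.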
